A study of Mus musculus with 4 samples.

Results

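The interleukin 1 and interleukin 18 receptor genes examined here are Il1r1 (ENSMUSG00000026072), Il1r2 (ENSMUSG00000026073), Il1rl1 (ENSMUSG00000026069), Il18r1 (ENSMUSG00000026070) and Il18rap (ENSMUSG00000026068). They were chosen by name and make up 5 of the 33696 genes in the deposited matrices, and all 5 had counts in both tissues. The cells came from wild-type C57BL/6 mice in which experimental autoimmune encephalomyelitis, an inflammation of the central nervous system that follows immunization, had been induced 60 days earlier. CD4+ cells that carried CD44, a mark of antigen experience, and lacked GITR, which is high on regulatory T cells, were sorted from brain and from spleen, and 18718 brain and 38000 spleen cells were loaded on a droplet device. Each tissue gave 1 RNA library and 1 T cell receptor library, the sources used here do not say how many mice were pooled, and both groups were immunized, so there is no group of healthy animals. With 1 library per tissue nothing could be tested across animals: no p-value is given, and every interval is a 95% interval that covers counting error only. The intervals are exact except those of odds ratios, which are approximate.

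Il1r1 encodes the signalling receptor for interleukin 1, and Il1r2 encodes a decoy that binds interleukin 1 without signalling. Il1rl1 encodes ST2, the receptor for interleukin 33, which is known on tissue regulatory T cells and on type 2 helper cells. Il18r1 and Il18rap encode the alpha and beta chains that together form the interleukin 18 receptor, known for raising interferon gamma output by Th1 and natural killer T cells. The signalling receptors of the family act through the adaptor Myd88 and NF-kappaB, and interleukin 1 signalling supports the differentiation and cytokine production of Th17 cells in this disease model.

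After filtering, 3961 brain cells with 41329372 unique molecular identifiers (UMIs, each a counted RNA molecule) and 7990 spleen cells with 60437292 UMIs were kept. The median cell held 9845 UMIs in brain and 7190 in spleen, so a gene at the same level was seen in more brain cells, and shares of cells are also given after each cell was thinned to 4000 UMIs, which left 3615 brain and 7153 spleen cells. Cd3e was detected in 94.0% of brain and 94.8% of spleen cells and Cd4 in 86.2% and 81.7%. Of the CD8 genes, Cd8a was found in 0.985% of brain and 0.275% of spleen cells and Cd8b1 in 6.51% and 6.56%. Both were among the leading genes of brain cluster 14 below. The gamma-delta gene Trdc was found in 0.454% of brain and 1.05% of spleen cells. Among markers of other cells, the mast cell and basophil genes Ms4a2, Mcpt8, Fcer1a and Gata2 were at 0 in both tissues and the fifth of that list, Cpa3, was found in 0.480% of brain and 0.488% of spleen cells, and no myeloid, B cell or neutrophil marker passed 4 CPM (UMIs per 1000000 UMIs) in either. At least 1 UMI of such a marker was held by 213 brain and 312 spleen cells (5.38% and 3.90%); in brain Il1r1 was found in 30.5% of these and 21.1% of the others and Il1r2 in 18.8% and 9.23%. Without cells that held a myeloid, mast cell or B cell marker the log2 brain to spleen ratios described below were 3.48 for Il1r1 (3.53 with them), 3.71 for Il1r2 (3.79), 1.39 for Il18r1 (1.41) and 1.30 for Il18rap (1.30). In brain clusters 6 and 7 and spleen clusters 7 and 11, 260 and 564 cells had a low UMI number (medians 3376 and 2443) and a paired T cell receptor in 5.77% and 11.3% of cells, against 84.4% and 89.9% of the other cells. They were kept, and values without them are given where they matter. The brain and spleen libraries shared 15 cell barcodes among the cells kept.

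All 5 genes lie next to each other on chromosome 1. In RefSeq's GRCm38.p6 annotation the order is Il1r2, Il1r1, Il1rl2, Il1rl1, Il18r1 and Il18rap, with Map4k4 before them and Slc9a4 after. Of the genes that flank or interrupt the group, none was called between the tissues by the rule given below: Map4k4 was at 136 CPM in brain and 161 in spleen, Il1rl2, the receptor for interleukin 36, was at 7.91 and 9.51 CPM, and Slc9a4 was at 0 in both. Il18r1 and Il18rap are neighbours whose RNA was found together more often than depth gives (below), so the bases before their first annotated starts are shown, 5′ to 3′ on the plus strand, from RefSeq on GRCm38.p6. They were read for 4 motifs on both strands, and a match is given in capitals.

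Il18r1, chr1:40465419-40465551, the 133 bases between the annotated end of Il1rl1 and the start: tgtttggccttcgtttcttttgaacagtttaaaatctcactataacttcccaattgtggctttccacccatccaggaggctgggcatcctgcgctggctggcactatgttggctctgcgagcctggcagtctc
Il18rap, chr1:40515112-40515361, 250 bases: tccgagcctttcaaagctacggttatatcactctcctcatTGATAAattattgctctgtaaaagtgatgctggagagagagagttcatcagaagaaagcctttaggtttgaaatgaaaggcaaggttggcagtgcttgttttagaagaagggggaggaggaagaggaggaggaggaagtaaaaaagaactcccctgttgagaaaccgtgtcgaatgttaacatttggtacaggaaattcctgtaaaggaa

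The capitals in the Il18rap stretch mark TGATAA, bound by factors of the GATA family, which 7.94% of the 32851 RefSeq windows of the same 250 bases hold. The Il18r1 stretch held none of the 4 motifs. Over the windows listed for the family (2 for Il1r1, 1 for Il1r2, 2 for Il1rl1, 3 for Il18r1 and 1 for Il18rap), TGATAA was also found before Il1r2 and in 1 window of Il1rl1. AGGTCA, the half-site of ROR nuclear receptors, was in 1 window of Il1rl1 and in 14.0% of all windows. GGTGTG, the core of the T-box site, was in 1 window of Il18r1 and in 16.3% of all windows. A strict NF-kappaB consensus was in none of the windows of the family and in 0.140% of all. These are letters in a window and not sites shown to be used.

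Comparing the tissues asked which receptors the T cells left in the chronically inflamed brain carried beyond those in spleen. Il1r1, Il1r2, Il18r1 and Il18rap were all higher in brain, and Il1rl1 was too low to be called. A gene was called when the larger level was 10 CPM or more and 1.5 times the smaller one or more, and the interval of the ratio left out 1. By this rule 9.82% of 8637 measured genes were higher in brain and 8.66% lower, so such a call was not rare. Il1r1 and Il1r2 reached 10 CPM in brain only, Il18r1 and Il18rap in both tissues and Il1rl1 in neither, and the gene family had come to notice in these data before.

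Il1r1 was at 85.9 CPM in brain (83.1 to 88.8) and 7.43 CPM in spleen (6.76 to 8.15), a ratio of 11.6 (10.5 to 12.8). It was detected in 855 of 3961 brain cells (21.6%) and 257 of 7990 spleen cells (3.22%), and after thinning in 15.1% and 2.04%. Il1r2, the decoy, was at 40.6 CPM in brain and 2.95 in spleen, a ratio of 13.8 (11.8 to 16.2). Both interleukin 1 receptors were thus more than 10 times higher in brain. Il1r2 was found in 9.75% of brain and 0.989% of spleen cells, or 5.89% and 0.545% when thinned. As a background, 140 spleen B cells of the same library were used, with a median of 5387.5 UMIs. Il1r1 and Il1r2 were each found in 1 of them (0.714%, 0.0181 to 3.92%), at 2.21 and 4.43 CPM. Whether B cells make either RNA themselves was not tested. Over all spleen cells the shares of both genes lie within that background interval. Between spleen clusters, however, they differed beyond counting error at like depth (Il1r1 in 148 of 592 and 2 of 2137 cells, Il1r2 in 25 of 681 and 0 of 2137; clusters 8, 10 and 0 below), so those shares are not read as background.

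The 2 chains of the interleukin 18 receptor differed less between tissues but were found in far more cells. Il18r1 was at 423 CPM in brain and 159 in spleen, a ratio of 2.67 (2.60 to 2.73), and was detected in 71.0% and 38.2% of cells, or 60.0% and 29.9% when thinned. Il18rap was at 113 and 45.9 CPM, a ratio of 2.46 (2.34 to 2.58), and was detected in 47.1% and 16.4% of cells, or 28.2% and 11.2% when thinned. In the B cells Il18r1 was found in 1 of 140 and Il18rap in 0 of 140, which allows a share of up to 2.14%. For both chains the spleen share was above that background.

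Il1rl1 was scarce in both tissues: 5.93 CPM in brain (5.21 to 6.72) and 2.65 in spleen (2.25 to 3.09), a ratio of 2.24 (1.83 to 2.75) that did not count as a call. It was found in 126 brain cells (3.18%) and 85 spleen cells (1.06%), and after thinning in 1.69% and 0.755%. Its spleen share lies under the 2.14% that 0 of 140 B cells allows. Of the brain cells with Il1rl1, 57.9% held a single UMI of it, against 14.6% of the brain cells with Il18r1.

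**Figure D1:**
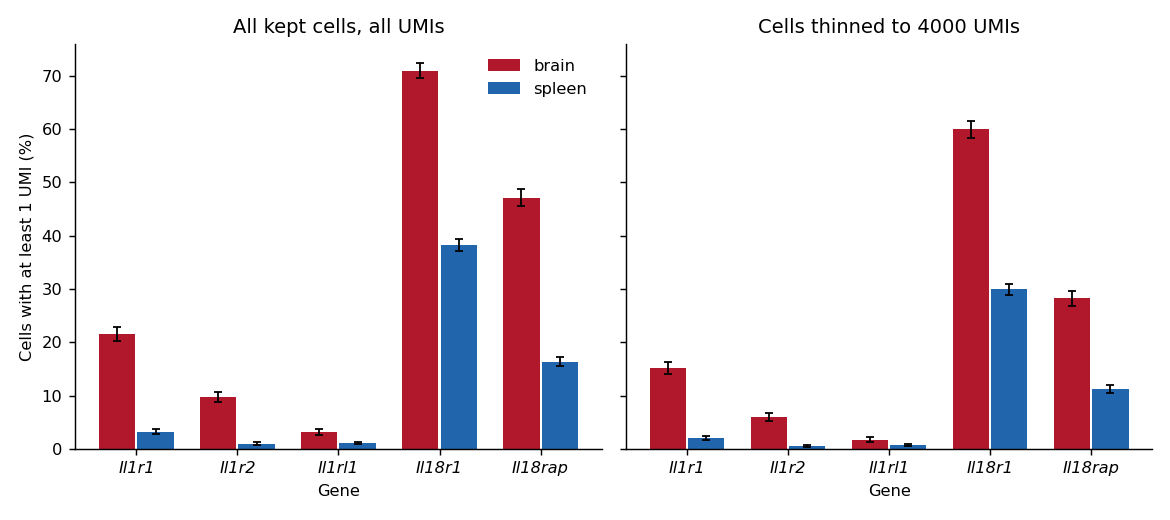
Share of cells with at least 1 UMI of each receptor gene in brain (red) and spleen (blue), in percent, for all kept cells (left) and for cells thinned to 4000 UMIs (right); error bars are exact binomial 95% intervals of counting error with 1 library per tissue. Il1r1 was found in 21.6% of brain and 3.22% of spleen cells, and after thinning in 15.1% and 2.04%.

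Seen per cell, at least 1 of the 5 genes was detected in 77.6% of brain and 43.5% of spleen cells, and 2 or more in 51.3% and 14.6%. All 5 were detected together in 4 brain cells and in 0 spleen cells. The brain cells also carried more RNA of early response genes such as Fos, Jun and Atf3, which rise on activation and on tissue handling. When brain cells of at least 4000 UMIs were split into 3 equal groups by the summed level of a list of such genes, the thinned share of Il1r1 was 9.63% in the lowest group, 13.9% in the middle and 21.9% in the highest, and that of Il18r1 was 50.2%, 56.2% and 73.6%. The shares of Il1r2 were 3.82%, 4.23% and 9.63% and those of Il18rap 25.0%, 25.7% and 33.9%. In spleen the same split gave 1.80%, 2.01% and 2.31% for Il1r1 and 29.7%, 29.6% and 30.4% for Il18r1, 0.419%, 0.419% and 0.797% for Il1r2, and 12.5%, 11.2% and 9.94% for Il18rap, which ran down where brain ran up. The lowest brain group (median 4427 CPM of these genes) was above the highest spleen group (2186 CPM), so the tissues cannot be compared at an equal level of early response RNA, and its part in the tissue difference was not tested. In the lowest brain group each of these 4 shares was above that of every spleen group. That group still held more early response RNA, so these shares cannot show its part in the tissue difference.

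The 5 genes were left out of the genes used for clustering, so their levels by cluster are not built in, although genes that vary with them were used. Clusters are named by markers where these sufficed and otherwise by leading genes. Il1r1 in brain was concentrated in 3 clusters: the Th17-like cluster 5 (led by Ccl1, Nrgn, Igfbp7, Il17a and Penk), the Th17-like cluster 2 (Ccr6, Il22, Ccr4, Mmp25 and St6galnac1), and cluster 4 (Cd74, Actn2, Tmem176b, Ltb4r1 and Tmem176a). Their levels were 386 CPM (361 to 412), 226 CPM (211 to 242) and 173 CPM (163 to 184), an order with no overlap of intervals. These clusters held 25.5%, 23.0% and 31.5% of all Il1r1 UMIs with 4.44%, 7.20% and 13.0% of the cells. Cluster 4 was also where the myeloid marker list stood highest, with a mean log2 difference of 1.36 from the other brain cells. In every other brain cluster that value was negative. Cst3 was among the leading genes of cluster 4 as well, and the part of carried-over myeloid RNA in its receptor levels was not tested. The low-UMI brain cluster 6 stood at 392 CPM, from 228 UMIs. Below them came cluster 1, led by the chemokine genes Ccl3 and Ccl4, at 61.8 CPM and the proliferating-like cluster 11 at 53.9 CPM, whose intervals overlap. Il1r1 was at 0 in cluster 13 (Gzma, Klrg1, S1pr5) and in cluster 14 (Eomes, Gzmk, Cd8a), and was found in 2 of 314 naive or central memory-like brain cells (0.637%). In spleen the Th17-like cluster 8 (led by Tmem176a, Tmem176b, Ccr6, Nebl and Ccr4) held 59.7% of the Il1r1 UMIs with 7.41% of the cells, at 56.3 CPM, ahead of cluster 3 (Ifitm2, Ifitm1, Ifitm3) at 19.6 CPM.

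Il1r2 did not follow Il1r1 through all of these cells. In brain, cluster 5 alone held 45.1% of its UMIs, at 322 CPM (300 to 346), and it was detected in 116 of 176 cells there (65.9%). The other Th17-like cluster, 2, was at 12.4 CPM (9.08 to 16.7) and 5.97% of cells, although Il1r1 was found in 67.4% of its cells. Il1r2 thus divided the 2 brain Th17-like clusters while Il1r1 was high in both. How high a cluster stood depended on how finely cells were divided: at a Leiden resolution of 0.5 the highest brain cluster was at 124 CPM of Il1r2, and at 1.2 at 328 CPM. Apart from the low-UMI cluster 6 at 198 CPM, cluster 4 was at 60.2 CPM and cluster 1 at 53.1 CPM, with overlapping intervals, followed by the proliferating-like cluster at 24.8 CPM and the regulatory-like cluster 9 at 24.4 CPM. In spleen the Il1r2 UMIs lay elsewhere: 51.7% in the follicular helper-like cluster 10 (17.8 CPM, 25 of 681 cells) and 34.3% in the regulatory-like cluster 12 (9.11 CPM, 34 of 966 cells). The spleen Th17-like cluster held 5 UMIs, or 1.05 CPM. The shares of cells in both spleen clusters, 3.67% and 3.52%, lie within the interval of the B cells, but 0 of 2137 naive or central memory-like spleen cells held Il1r2. The highest spleen cluster was at 46.7 CPM of Il1r2 at resolution 0.5 and 44.9 CPM at 1.2, and at 1.2 the highest was at 114 CPM of Il1r1 and 34.5 CPM of Il1rl1.

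Low-UMI clusters aside, Il1rl1 was highest in the regulatory-like clusters of both tissues. In the brain cluster 9, led by Foxp3, Ikzf2 and Lrrc32, it was at 22.3 CPM (16.2 to 30.1) and in 20 of 210 cells (9.52%). In the spleen cluster 12, also led by Foxp3, it was at 14.0 CPM (11.4 to 17.2) and in 39 of 966 cells (4.04%), and this cluster held 58.8% of the spleen UMIs of Il1rl1. The brain UMIs were more spread: 25.7% were in cluster 3 (Spp1, Slamf6, Nrn1), 17.6% in the regulatory-like cluster, 16.3% in cluster 0 (Il12rb2, Zfp683, Itga1) and 13.9% in cluster 1. Brain cluster 3, the next below the regulatory-like one at 11.8 CPM, did not overlap it (9.05 to 15.1), and spleen cluster 3 at 10.4 CPM overlapped the spleen regulatory-like one. The low-UMI brain cluster 7, led by Hdac9 and Ikzf2, was at 24.7 CPM from 12 UMIs in 3 cells.

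Il18r1 was found in every cluster. In brain it ranged, low-UMI clusters aside, from 40.4 CPM in the naive or central memory-like cluster 8 to 649 CPM in cluster 4, and clusters 4, 2 and 5 (649, 646 and 605 CPM) had overlapping intervals from each to the next. In spleen it ranged from 9.18 CPM in cluster 9 (Myb, Eomes, Gzmk) to 714 CPM in cluster 3, which was above the Th17-like cluster at 537 CPM and cluster 2 (Gzma, Zeb2, S1pr5) at 473 CPM. The spleen thus held clusters with as much Il18r1 as the brain, but clusters 3, 8 and 2 were 4.01%, 7.41% and 1.16% of its cells, and the naive or central memory-like cluster, at 51.5 CPM, was 26.7%.

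Il18rap had another peak. The highest levels were in the small cluster 13 of brain at 670 CPM (595 to 752; 41 of 42 cells) and in cluster 2 of spleen at 804 CPM (729 to 884; 85 of 93 cells), which share the leading genes Gzma, S1pr5, Ccl5 and Cx3cr1 of cytotoxic effector cells. Low-UMI clusters aside, brain clusters 1 and 5 at 189 CPM each and spleen cluster 3 at 243 CPM came next. The naive or central memory-like clusters had almost none, 0.318 CPM in brain and 1.69 in spleen, while their Il18r1 was at 40.4 and 51.5 CPM. The alpha chain was therefore detected in 25.5% and 27.0% of cells that almost never held the beta chain (0.318% and 1.03%).

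**Figure D2:**
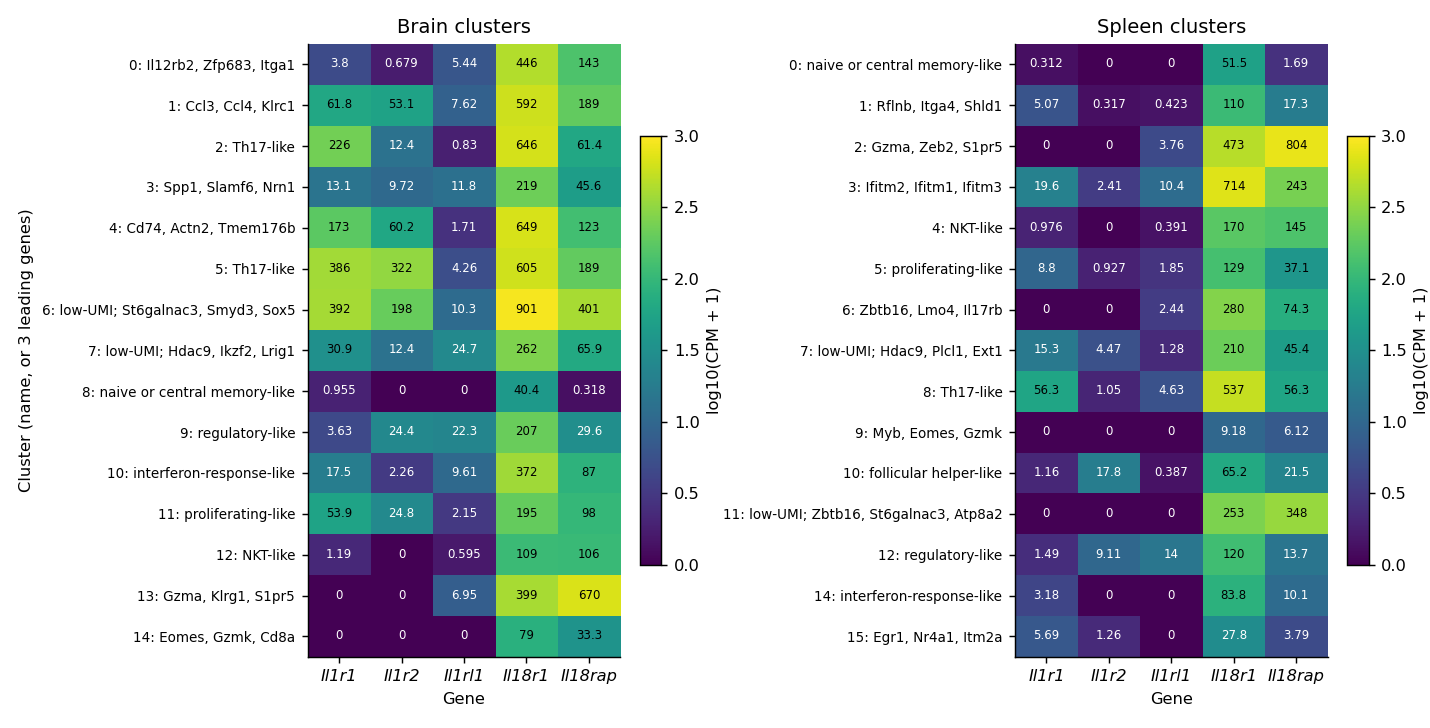
Level of each receptor gene in the clusters of brain (left) and spleen (right), as log10(CPM + 1) in colour with the CPM printed in each cell; rows are clusters with their name or 3 leading genes, and low-UMI clusters are marked. Il1r1 reached 386 CPM in brain cluster 5 and Il18rap 804 CPM in spleen cluster 2.

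Cells of the same name were also set against each other across tissues. In Th17-like cells (461 in brain, from clusters 2 and 5, and 592 in spleen, from cluster 8), Il1r1 was at 289 against 56.3 CPM, a ratio of 5.13 (4.51 to 5.86), and Il1r2 at 134 against 1.05 CPM, a ratio of 128 (54.5 to 395). Both were called higher, as were 11% of genes in this class (14.3% were lower). The Il1r2 ratio rested on cluster 5: against the same spleen cells it was 11.8 (4.72 to 38.2) for cluster 2, 306 (131 to 947) for cluster 5 and 57.3 (24.3 to 177) for cluster 4, which stayed unnamed although it shares the leading genes Tmem176a and Tmem176b with the spleen cluster. In the same cells Il18r1 was at 630 and 537 CPM, a ratio of 1.17 (1.12 to 1.23), and was not called in any of these clusters. Il18rap was at 112 against 56.3 CPM, a ratio of 1.98 (1.72 to 2.29), and was called higher. Against the same spleen cells its ratio was 1.09 for cluster 2, which was not called, 3.35 for cluster 5 and 2.18 for cluster 4. The interleukin 1 receptors and Il18rap thus differed between tissues within this class, and Il18r1 by little. In regulatory-like cells the ratio was 2.68 for Il1r2, 2.15 for Il18rap, 1.72 for Il18r1 and 1.59 (1.08 to 2.30) for Il1rl1, all called higher in brain, as were 8.21% of genes in this class (8.88% were lower). In interferon-response-like cells Il18r1 was at 372 against 83.8 CPM and Il18rap at 87.0 against 10.1 CPM, where 15.4% of genes were called higher and 10.9% lower. Natural killer T-like cells went the other way for Il18r1, with 109 CPM in brain and 170 in spleen (ratio 0.643, 0.545 to 0.755), a call that 14.3% of genes shared (7.36% were higher). In naive or central memory-like cells Il18r1 had a ratio of 0.785 (0.646 to 0.947) and was not called. Different clusters hold these names in the 2 tissues, and each rests on 1 library. Among the Th17-like cells, Il17a was found in 66 of 285 cells of brain cluster 2 and 123 of 176 of cluster 5. In spleen it was found in 6 of 592, and the part of this in the ratios was not tested.

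The next question was which cytokine or lineage gene each receptor was found with in the same cell. Il17a, the signature cytokine of Th17 cells, was detected in 368 brain cells and in 11 spleen cells. Of the brain cells with Il17a, 308 also held Il1r1 (83.7%, 79.5 to 87.3), against 15.2% of the cells without it, an odds ratio of 28.6 (21.4 to 38.2). Within 10 strata of equal depth the odds ratio was 25.9, and 99.3 cells with both would be given by depth alone. Il1r2 was found in 50.5% and 5.57% (odds ratio 17.3, 13.8 in depth strata) and Il18r1 in 97.6% and 68.2%. By level, Il1r1 was at 371 CPM in cells with Il17a and 47.1 without, Il1r2 at 215 and 16.9, and Il18r1 at 638 and 393, and all 3 were called higher, as were 6.29% of genes (5.35% were lower). Il18rap (123 and 111 CPM) was not called, and Il1rl1 was found in 7 of the 368 cells, where depth gives 14.8. In spleen 7 of the 11 cells with Il17a held Il1r1 (63.6%, 30.8 to 89.1) and 0 held Il1r2.

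Ifng, which encodes interferon gamma, was detected in 1741 brain and 610 spleen cells, and the beta chain of the interleukin 18 receptor went with it in both tissues. In brain Il18rap was found in 64.7% of cells with Ifng and 33.3% without (odds ratio 3.67, 3.22 to 4.19; 3.42 in depth strata), and was called higher by level, 156 against 71.7 CPM, as were 3.85% of genes. In spleen the shares were 48.9% and 13.7% (odds ratio 6.02, 5.07 to 7.15; 5.72 in depth strata) and the levels 173 and 34.3 CPM, with 10.7% of genes called higher there and 3.71% lower. Il18r1 was linked less strongly: 78.9% against 64.8% in brain and 53.4% against 37.0% in spleen, with odds ratios of 2.03 and 1.96, or 1.74 and 1.92 in depth strata. By level it was called in spleen (268 and 149 CPM) and not in brain (459 and 388 CPM). Il1r1 was lower in brain cells with Ifng, 52.6 against 117 CPM, a call that 3.62% of genes shared, and was detected in 16.6% against 25.5% of them. Il1r2 was at 40.6 CPM in both.

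Splitting the interleukin 18 receptor by its chains showed which one the link with Ifng followed. In brain Ifng was found in 60.6% of cells with both chains, 58.6% with Il18rap only, 32.0% with Il18r1 only and 26.1% with neither. In spleen the shares were 23.3%, 21.1%, 4.64% and 4.68%. In both tissues cells with Il18rap only were within the interval of cells with both, and in spleen cells with Il18r1 only were within that of cells with neither. The median depths of the 4 groups ran from 8423 to 11140 UMIs in brain and from 6918 to 7852 in spleen.

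Crossing Il17a with Ifng in brain separated the 2 interleukin 1 receptors. Il1r1 was found in 85.8% of the 106 cells with both cytokines and in 82.8% of the 262 with Il17a only, against 12.1% of the 1635 with Ifng only and 17.8% of the 1958 with neither. Il1r2 was found in 68.9% (59.1 to 77.5) of cells with both and 43.1% (37.0 to 49.4) with Il17a only, then in 6.73% and 4.60%. By level Il1r2 was at 265 CPM (242 to 290) with both and 187 CPM (172 to 203) with Il17a only, while Il1r1 was at 286 CPM (262 to 312) and 420 CPM (398 to 444). By level the decoy was thus highest, and the signalling receptor not highest, in cells with both cytokines. By share of cells the intervals of Il1r1 in the 2 Il17a groups overlapped (77.7 to 91.9% with both, 77.7 to 87.2% with Il17a only). Those cells were deeper, with a median of 14013 UMIs against 11004. Il18r1 was found in 99.1% and 96.9% of the Il17a groups and Il18rap in 75.5% and 61.5%.

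**Figure D3:**
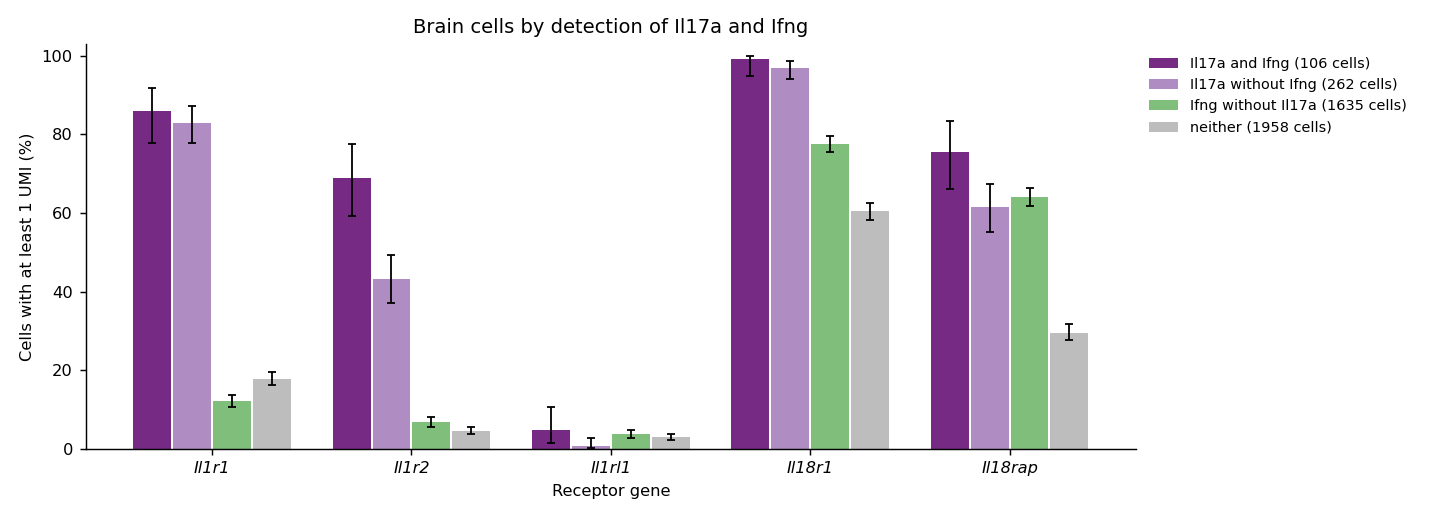
Share of brain cells with at least 1 UMI of each receptor gene, in percent, for cells with both Il17a and Ifng, with 1 of them, or with neither; error bars are exact binomial 95% intervals. Il1r2 was found in 68.9% of cells with both cytokines, 43.1% with Il17a only, 6.73% with Ifng only and 4.60% with neither.

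Foxp3, the transcription factor of regulatory T cells, was detected in 268 brain cells and 953 spleen cells, although the sort was for conventional cells. Il1rl1 was found with it in both tissues: in 10.4% of brain cells with Foxp3 and 2.65% without (odds ratio 4.28, 2.76 to 6.64), and in 3.99% and 0.668% of spleen cells (6.18, 4.01 to 9.52). Its levels were 19.8 against 4.83 CPM in brain and 13.4 against 1.27 CPM in spleen, both called higher, as were 5.76% and 6.30% of genes. Il18rap was called lower in both (60.8 against 117 CPM and 17.0 against 49.6 CPM), as were 4.60% and 3.66% of genes, and Il18r1 was not called in either. Il1r1 was lower in brain, at 34.4 against 90.0 CPM. The level of Il1r2 was lower in brain cells with Foxp3 (24.5 against 41.9 CPM), while in spleen it stood at 7.72 against 2.33 CPM, too low to call. Its share of cells ran the same way in both, at 12.7% against 9.53% in brain (odds ratio 1.38, 0.947 to 2.01) and 3.04% against 0.711% in spleen, and a difference between the tissues was not tested.

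Gata3 encodes the lineage factor of type 2 helper cells, which is also present at lower levels in other T cells, and was found in 1621 brain and 2511 spleen cells. Few genes were called between cells with and without it (0.336% higher and 0.288% lower in brain, 2.88% and 0.423% in spleen), and no receptor gene was. Il1rl1 in both tissues, and Il1r1 and Il1r2 in spleen, were under 10 CPM and could not be called. The level ratio of Il1rl1 was 2.68 (2.03 to 3.57) in brain and 2.70 (1.95 to 3.77) in spleen. Il1rl1 nevertheless had the highest odds ratio of the 5 in both tissues, with 4.81% against 2.05% in brain (2.41, 1.68 to 3.48; 2.03 in depth strata) and 1.99% against 0.639% in spleen (3.16, 2.05 to 4.88; 2.78 in depth strata). For the other 4 genes the brain odds ratios, 1.02 to 1.44, became 0.811 to 1.11 within depth strata. In spleen they stayed at 1.45 to 1.79 within strata.

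Foxp3 and Gata3 together marked the highest share of cells with Il1rl1. In brain it was found in 23 of 138 cells with both (16.7%, 10.9 to 24.0), 5 of 130 with Foxp3 only (3.85%), 3.71% with Gata3 only and 1.95% with neither. In spleen the shares were 5.56%, 3.04%, 1.39% and 0.348%. In brain the interval of cells with both did not overlap that of any other group, and in spleen it overlapped that of cells with Foxp3 only.

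**Figure D4:**
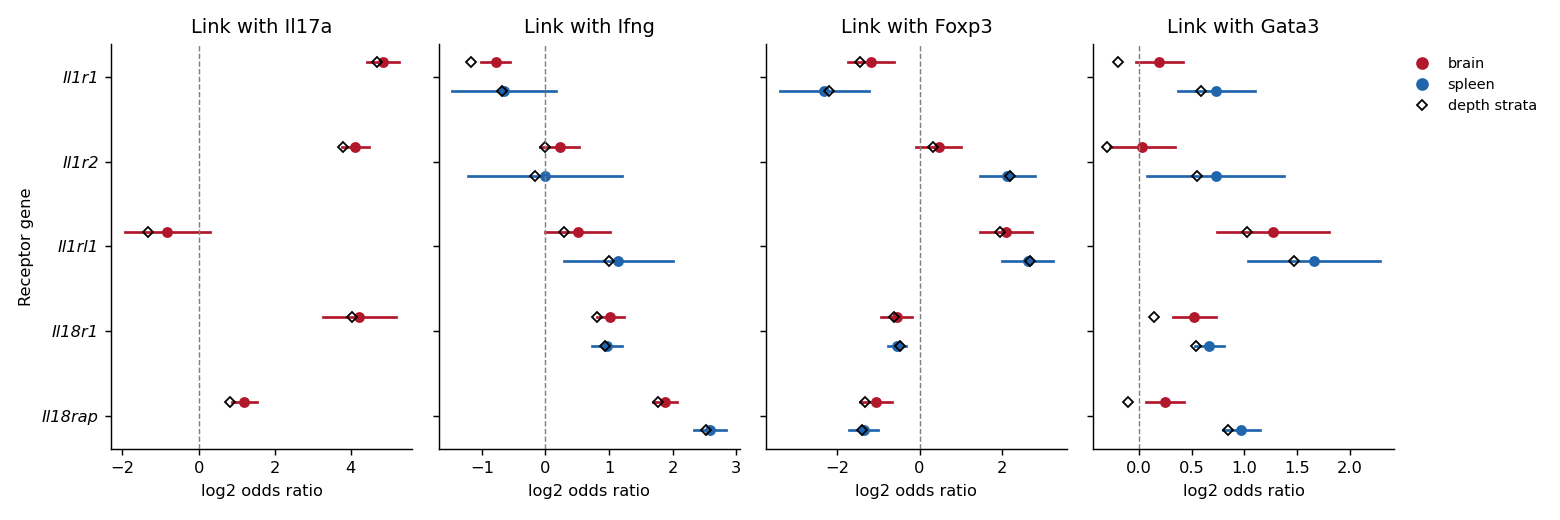
Link of each receptor gene with Il17a, Ifng, Foxp3 and Gata3 within single cells, as the log2 odds ratio of detecting both, in brain (red) and spleen (blue); lines are approximate 95% intervals and open diamonds the value within 10 depth strata, and Il17a in spleen, found in 11 cells, is left out. Each panel has its own axis range. Il1r1 with Il17a has the largest odds ratio drawn, 28.6 in brain.

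Each pair of the 5 genes was then scored for cells that hold both, against the number that depth alone gives. In brain 258 cells held Il1r1 and Il1r2 where depth gives 101, so 66.8% of the Il1r2 cells also held Il1r1 (odds ratio 10.1, 7.99 to 12.7; 8.78 in depth strata). Of the 855 brain cells with Il1r1, 96.5% held Il18r1 and 64.0% Il18rap. Il1rl1 was found apart from Il1r1, in 14 cells where depth gives 32.6 (odds ratio 0.445, 0.254 to 0.780; 0.309 in depth strata). The 2 interleukin 18 receptor chains were found together in 1657 brain cells against 1382 given by depth and in 987 spleen cells against 520, with odds ratios of 6.43 (5.44 to 7.60) and 6.84 (5.97 to 7.83), or 5.41 and 6.71 in depth strata. After thinning to 4000 UMIs the brain log2 odds ratio was 1.90 for the 2 chains (2.68 unthinned), 2.50 for Il1r1 with Il18r1 (3.95) and -2.42 for Il1r1 with Il1rl1 (-1.17). In spleen only 5 cells held both Il1r1 and Il1r2, where depth gives 2.80. Il1r2 and Il18r1 were linked in brain (odds ratio 4.55, 3.19 to 6.48) and not in spleen (0.886, 0.557 to 1.41). Il1rl1 was linked in spleen with Il18r1 (4.42, 2.74 to 7.15) and Il18rap (4.65, 3.02 to 7.15). In brain both of these were weaker, at 1.59 (1.03 to 2.47) and 2.22 (1.53 to 3.22), and whether they differ between the tissues was not tested.

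The T cell receptor libraries allowed 2 further descriptions. Cells with the invariant alpha chain TRAV11-TRAJ18 of natural killer T cells were 122 brain and 656 spleen cells with a paired receptor. Among them Il1r1 gave 2 UMIs in brain, a ratio of 0.0185 (0.00224 to 0.0669) to other paired cells, and 1 UMI in spleen, and Il1r2 and Il1rl1 gave 0 in both, which allows 2.30 CPM in brain and 0.569 in spleen. Il18rap was at 137 CPM in spleen invariant cells and 35.2 in other paired cells, a ratio of 3.90 (3.57 to 4.26) that was called higher, as were 13.4% of genes there (8.51% were lower). In brain it was at 108 and 106 CPM (1.02, 0.860 to 1.21). Il18r1 was at 71.3 against 419 CPM in brain, a ratio of 0.170 (0.137 to 0.209) that was called lower, as were 9.86% of genes (8.36% were higher), and at 177 against 154 CPM in spleen, a ratio of 1.14 (1.07 to 1.23) that was not called. The beta chain was thus level with other cells in brain invariant cells while the alpha chain was low.

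Clonotypes, cells that share both receptor chains, differed sharply in the interleukin 1 receptors. Of the 18 brain clonotypes with at least 10 cells, 9 held no UMI of Il1r1 and in the others 8.70% to 94.1% of cells had it. The largest, of 67 cells, held 0 Il1r1 UMIs, which allows 4.41 CPM, and had Ifng in 88.1% of its cells and Il18r1 in 94.0%. The third largest, of 48 cells, had Il1r1 in 56.2%, Il1r2 in 45.8% and Il17a in 41.7%, and the tenth, of 17 cells, had Il1r1 in 94.1%, Il1r2 in 52.9% and Il17a in 70.6%. Il17a was found in 9 of the 18 clonotypes, and 8 of these were among the 9 with Il1r1. Il1r2 was found in 11, and 8 of these had Il1r1. Il18r1 and Il18rap were found in all 18, in 25.0% to 100% and 33.3% to 92.9% of cells. The third clonotype alone held 13.7% of the Il1r2 UMIs of paired brain cells with 1.53% of those cells, and without it the level of Il1r2 in paired cells was 29.6 CPM in place of 33.8. Of the second largest, 9 of 57 cells held Il1rl1 (15.8%) and 0 held Foxp3.

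**Figure D5:**
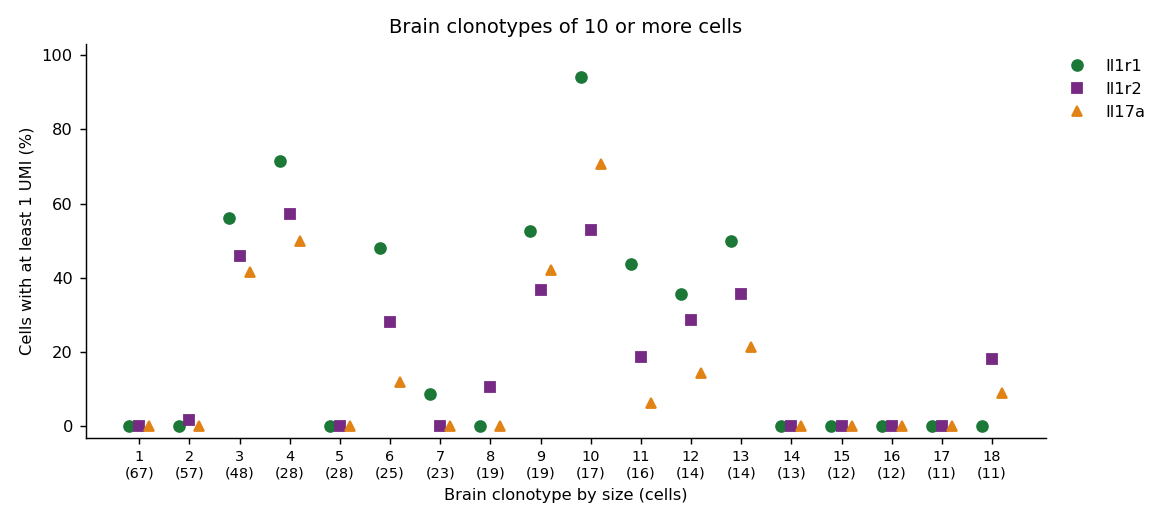
Share of cells with at least 1 UMI of Il1r1 (circles), Il1r2 (squares) and Il17a (triangles), in percent, in each of the 18 brain clonotypes of at least 10 cells, ordered by size with the number of cells in brackets. The 9 clonotypes without Il1r1 lie at 0, and the highest share of Il1r1 is 94.1%.

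All 5 genes were at higher levels in cells of expanded clonotypes (5 or more cells) than in cells whose receptor was seen once, although the intervals overlap for Il1rl1 in brain (6.16 against 5.08 CPM) and Il1r2 in spleen (6.54 against 2.70). The share of all genes that were higher in expanded clonotypes was not counted, so the rise is not read as particular to this family. In brain Il1r1 was at 118 against 60.0 CPM, Il1r2 at 67.7 against 20.4, Il18r1 at 561 against 306 and Il18rap at 182 against 70.7. In spleen Il18r1 was at 509 against 133 CPM and Il18rap at 224 against 34.8, with 214 cells of 23 expanded clonotypes. The tissue ratios remained without expanded clonotypes, with log2 ratios of 3.49 for Il1r1, 3.60 for Il1r2, 1.39 for Il18r1 and 1.24 for Il18rap.

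Clonotypes found in both tissues compare cells of common origin. Of 191 such clonotypes, 17 had at least 3 cells in each tissue (170 brain and 150 spleen cells). In these Il18r1 was at 611 CPM in brain and 627 in spleen, a ratio of 0.974 (0.886 to 1.07), and was higher in brain in 8 clonotypes and in spleen in 7. Il18rap was at 228 and 294 CPM (0.777, 0.672 to 0.899), but was higher in brain in 10 and in spleen in 6, with a median log2 difference of 0.40 toward brain. This ratio rested on the largest clonotype, with 57 brain and 60 spleen cells, and without it was 0.945 (0.765 to 1.17). The tissue difference of Il18r1 was thus not seen among these clonotypes. For Il18rap it was not seen in the pooled level, while more single clonotypes were higher in brain than in spleen. Il1r1 was at 59.1 and 30.4 CPM (1.94, 1.32 to 2.93; higher in brain in 5, in spleen in 1, at 0 in both or equal in 11), and Il1r2 at 15.4 and 4.35 CPM (3.55, 1.36 to 11.7; 29 and 5 UMIs). Il1rl1 was at 12.2 CPM in both, and without the largest clonotype its ratio was 0.414 (0.145 to 1.13).

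Other genes of the pathway were read from lists fixed by name. Of 5 other receptors of the family, 2 reached 10 CPM and neither was called: Il1rap, the shared co-receptor of interleukin 1 and interleukin 33, was at 15.2 and 15.4 CPM in brain and spleen, and Sigirr, an inhibitory receptor, at 55.5 and 62.7. The co-receptor thus did not share the 11.6-fold difference of Il1r1. Of 11 ligands and soluble inhibitors 0 reached 10 CPM. Il18bp, the soluble inhibitor of interleukin 18, which was singled out after its value was seen, was at 6.56 and 3.18 CPM. Of 16 signalling genes 15 were measured, 3 were higher in brain (Nfkb1 by 1.54, Tollip by 1.53 and Traf6 by 1.51) and 0 lower, where 9.82% and 8.66% of all measured genes were, with a median log2 ratio of 0.29 beside -0.09 over all measured genes. Irak4, the first kinase of the pathway, had a ratio of 0.678 and was not called. Of 8 NF-kappaB response and feedback genes 5 were higher and 0 lower, beside the same 9.82% and 8.66% of all genes, with a median log2 ratio of 1.82. They were Tnfaip3 (1444 against 155 CPM, ratio 9.29), Zc3h12a (5.70), Nfkbid (4.64), Nfkbiz (3.57) and Nfkbia (3.48, outside the 4 named by rule), all inducible regulators that many other receptors also raise, and they stand beside the early response RNA described above, whose part was not tested. Of the inflammasome genes that release active interleukin 1 and 18, 4 of 5 were measured: Casp4 was higher (1.98), Pycard lower (0.543), and Casp1 (1.37) and Gsdmd (0.949) were not called.

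The genes most like each receptor were taken by the correlation of log2(CPM + 10) across 30 clusters, with each tissue centred on its own mean. Clusters share a library, depth and in part genes used to form them, so these values are descriptions. For Il1r1 the nearest were Il23r (r = 0.92), the interleukin 23 receptor of Th17 cells, Cpd (0.92), Il17re (0.88), Hk2 (0.86) and Ablim3 (0.85). For Il1r2 they were Ppp1r14c (0.90), Myo16 (0.85), Nfil3 (0.83), Ablim3 (0.83) and Sgip1 (0.82), and for Il1rl1, less close, Frmd5 (0.71), Itgae (0.69), Lrrc32 (0.68), Swap70 (0.66) and Nrp1 (0.64). For Il18r1 they were Rora (0.86), the receptor-type transcription factor, Nebl (0.84), Mbd2 (0.82), Gna15 (0.82) and D16Ertd472e (0.80). For Il18rap they were Itgal (0.91), Diaph1 (0.91), Tbx21 (0.88), the Th1 lineage factor, Dock5 (0.88) and Sytl3 (0.87). The 2 chains of 1 receptor thus had different nearest genes. Without the 4 low-UMI clusters, 3 of 5 nearest genes remained for Il1r1, Il1r2 and Il18r1, 1 of 5 for Il1rl1 and 0 of 5 for Il18rap.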

How the data were processed

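Droplet RNA and T cell receptor libraries (1 of each per tissue) were used. The deposited RNA matrices hold raw UMI counts and the deposited receptor tables hold counts of reads and UMIs for each contig; the submitters' processing notes name Cell Ranger 9.0.0. Barcodes passed with 500 genes and 1000 UMIs or more and no more than 10% of UMIs from mitochondria (4143 of 4277 in brain, 8474 of 8707 in spleen). Barcodes with over 1 TRB or over 2 TRA chains were removed as doublets (179 and 315), which misses doublets with 1 recovered receptor, as were 169 spleen cells of a B-like cluster and 3 other non-T cells in brain. No other doublet caller was run.

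Each library was clustered on its own (scanpy 1.11.5; 2000 variable genes without the 5 members, 30 components, 15 neighbours, Leiden resolution 0.8). A cluster was named at 3 or more raised markers, 2 among its 10 leading genes and a mean log2 difference of 1, limits set after seeing the clusters. Levels are summed UMIs on the CPM scale, with exact Poisson, Clopper-Pearson and conditional binomial 95% intervals. Odds ratios have log-normal intervals. A count of 0 allows 3 counts. The calculation was checked on simulated counts. Named genes were the 5 members, 4 partners, up to 4 per list with the ratio farthest from 1, the 5 nearest per member and cluster leaders; genes beyond these are marker or neighbour genes, or were named after their values were seen. Members and lists were chosen with earlier results of these data known. Alternatives covered scaling (edgeR 4.0.16), cell filters, thinning to 4000 or 2000 UMIs and cluster resolution.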

Additional observations from a re-analysis of the deposited data

Results flagged for a closer look

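For 4 results the ratio in brain and that in spleen lay on opposite sides of 1, each with an interval that leaves out 1. The difference between tissues was not tested in any of them, since each tissue has 1 library. Il18r1 in invariant receptor cells stood at 0.170 times the level of other paired cells in brain and at 1.14 times in spleen. Il1r2 in cells with Foxp3 stood at 0.584 times the level of cells without it in brain and at 3.31 times in spleen, where it was under 10 CPM in both. This holds for the level only: the share of cells with Il1r2 was higher with Foxp3 in both tissues, 12.7% against 9.53% in brain, where the interval of the odds ratio includes 1, and 3.04% against 0.711% in spleen. In cells with Gata3, Il1r1 stood at 0.892 times in brain and 1.40 times in spleen, and Il18rap at 0.906 times in brain and 1.38 times in spleen; neither reached 1.5-fold in either direction.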

How the results depend on the processing

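No called tissue ratio changed its direction under any alternative run. For the log2 brain to spleen ratio, cells with a paired receptor only gave 3.54 for Il1r2 (3.79 over all cells), 1.37 for Il18r1 (1.41) and 1.23 for Il18rap (1.30). Without invariant receptor cells the ratio was 1.47 for Il18r1 and 1.60 for Il18rap, and for Il18r1 TMM scaling gave 1.46, RLE scaling 1.47 and the mean of per-cell CPM 1.36. The difference in share of cells, in percentage points, was smaller for all 5 genes after thinning. Thinning lowers detection and sets both tissues to equal depth, where brain cells were deeper before. Unthinned, the difference was 18.4 for Il1r1, 8.76 for Il1r2, 2.12 for Il1rl1, 32.7 for Il18r1 and 30.8 for Il18rap. It was 13.1 for Il1r1, 5.35 for Il1r2, 0.932 for Il1rl1, 30.1 for Il18r1 and 17.0 for Il18rap at 4000 UMIs, and 9.05, 3.80, 0.424, 25.9 and 9.08 at 2000. Counting cells from 2 UMIs gave 14.4, 5.75, 0.862, 37.4 and 19.7, and paired cells 7.61 for Il1r2. For the log2 odds ratios, thinning to 4000 UMIs gave 4.05 for Il1r1 with Il17a in brain (4.84 unthinned), 0.76 and 1.37 for Il18r1 and Il18rap with Ifng in brain (1.02 and 1.88) and 0.74 for Il1r2 with Foxp3 in spleen (2.13). Il18r1 with Ifng in brain was 0.80 in depth strata, 0.79 in paired cells and 1.24 without invariant cells. Counting members from 2 UMIs gave -0.37 for Il1r2 with Foxp3 in brain (0.46 from 1 UMI), 1.90 for Il1rl1 with Gata3 in brain, 1.36 and 2.88 for Il18r1 and Il18rap with Ifng in spleen and 3.70 for Il1rl1 with Foxp3 in spleen. With Gata3 in brain, Il18r1 turned to -0.044 when thinned (0.53 unthinned), and Il18rap to -0.10 in depth strata and -0.35 when thinned (0.25). Genes called between tissues were 1596 at 10 CPM, 3523 at 1 CPM and 4910 with no minimum, because more genes enter. The highest cluster level at a resolution of 0.5 was 287 CPM for Il1r1 and 634 CPM for Il18r1 in brain, where it was 392 and 901 CPM, in a low-UMI cluster, at 0.8. Except where the construction shows it, the cause was not tested. In brain depth per cell limits Il1rl1 most, with a single UMI in 57.9% of the cells that held it. In spleen that share was 55.3% for Il1rl1, 60.7% for Il1r1 and 65.8% for Il1r2. With 1 library per tissue no replicate could be left out. No paired analysis was possible because each group has 1 library.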
